A study of Mus musculus with 8 samples.

Results

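Imprinted genes are examined here in C3H10T1/2, mesenchymal stem cells of the mouse that turn into fat cells in adipogenic medium. The set holds 35 genes, taken by symbol from a list of well-known mouse imprinted genes and their domain neighbours, out of 41325 gene symbols in each library. All 35 symbols were found. RNA-seq was done on 4 lines of these cells, each at day 0 and day 5 of differentiation, with 1 library per condition and 8 in all. The lines are shControl, whose genotype is labelled WT, and 3 knockdown lines, shKDM4D, shNFIB and shMLL1. Each knockdown line carries a short hairpin RNA against *Kdm4d*, *Nfib* or *Kmt2a* (the gene of MLL1). Differentiation was started 2 days after confluence in every line, with insulin, dexamethasone and isobutylmethylxanthine, followed by insulin alone. The knockdown lines were made by puromycin selection and isolation of resistant clones. A difference between lines can therefore not be told apart from a difference between clones.

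In genomic imprinting a gene is expressed from the copy of only one parent, according to DNA methylation set in the egg or the sperm and kept through cell division. Imprinted genes lie in domains in which a differentially methylated control region acts on several neighbours, often through a long noncoding RNA made from the parental copy whose protein-coding neighbours are silent. Many of these genes act on fetal growth and are silenced in most tissues after birth. *Dlk1*, for example, is a marker of preadipocytes and inhibits their conversion to fat cells. The deposited values do not separate the parental copies, so that only total RNA per gene is described here. In a bulk sample, fewer cells with a transcript and less of it per cell cannot be told apart.

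Levels are RPKM, in which reads are divided by the exon length of a gene and by all mapped reads of the library. The libraries held between 15800000 and 38200000 mapped reads. A gene was taken as expressed when its RPKM exceeded 1 in at least 1 library, which held for 11513 genes. A ratio of RPKM values above 2 or below 0.5 was counted as past 2-fold. With 1 library per condition the spread between replicates of a line is not known, so differences between lines were not tested and the 95% intervals of log2 ratios cover counting error only. The change with differentiation was tested over the 4 lines, each of which was sampled on both days. *Nfib* had an RPKM of 9.92 in shControl and 2.31 in shNFIB cells at day 0, and *Kmt2a* had 5.17 in shControl and 2.00 in shMLL1 cells. *Kdm4d* was covered by 1 to 15 reads per library, too few to show its knockdown at day 0. The 10 mesenchymal markers had a summed RPKM between 2302 and 3733 over all libraries, but *Thy1* had 1 read at day 0 in shKDM4D and in shNFIB cells against 1995 in shControl cells. Markers of other cell types were low, with a summed RPKM of at most 3.48 for each of the myogenic, haematopoietic, epithelial, endothelial and neural lists, and *Myod1*, *Cd79a*, *Cd3e* and *Epcam* at 0 throughout.

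Of the 35 imprinted genes, 17 were expressed. These were 10 of the 19 genes known as paternally expressed and 7 of the 16 known as maternally expressed. *Gnas*, which encodes the stimulatory G protein alpha subunit, stood above all others, with an RPKM between 90.2 and 119.6. *Igf2r*, *Grb10* and *Impact* also exceeded 20 RPKM in at least 1 library. At the other end, *H19*, *Igf2* and *Dlk1* were below 1 RPKM in every line at day 0 and passed the limit only at day 5. These 3 genes entered the set of expressed genes through the libraries in which they were high, so some difference between libraries was required of them.

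**Figure D1:**
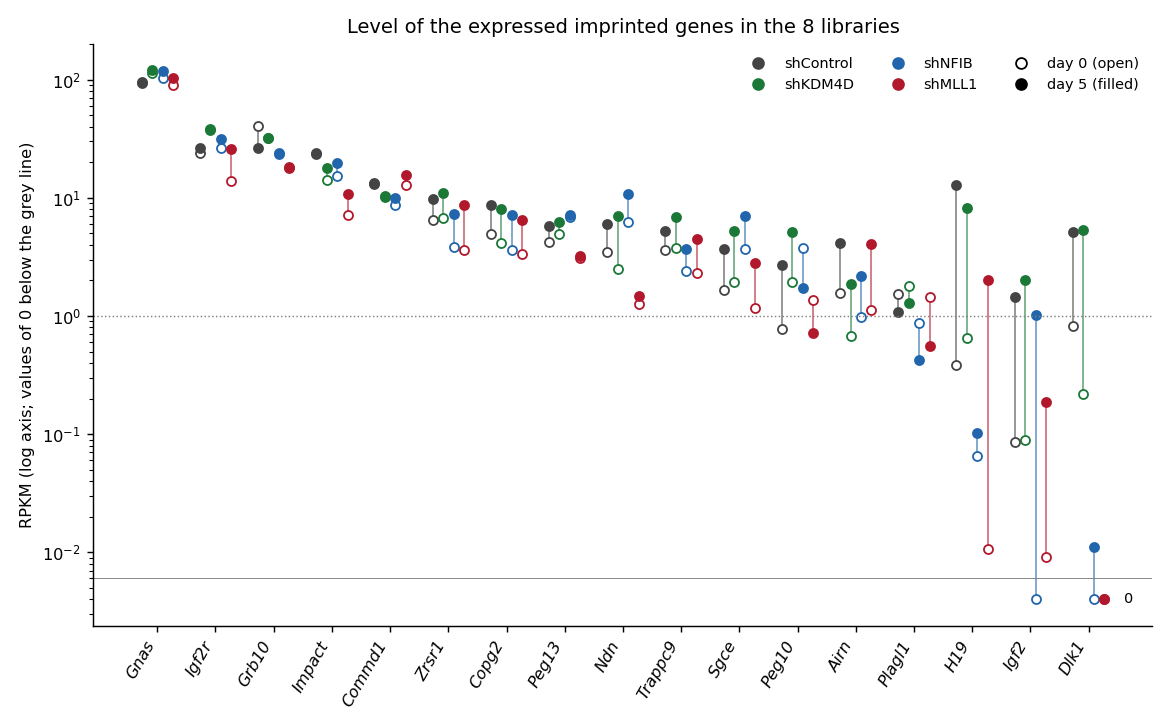
RPKM (log axis) of the 17 expressed imprinted genes in the 8 libraries, with 1 color per line, open circles for day 0 and filled circles for day 5. Values of 0 are drawn below the grey line, and the dotted line marks an RPKM of 1. *Gnas* lies between 90.2 and 119.6 in all libraries, whereas *H19*, *Igf2* and *Dlk1* lie below 1 at day 0 in every line.

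The first question was which imprinted genes already differed between the lines before differentiation. In shMLL1 cells at day 0, *H19*, *Igf2*, *Dlk1*, *Grb10*, *Ndn* and *Impact* were more than 2-fold lower than in shControl cells. These are 6 of the 17 expressed imprinted genes, against 7.43% of all expressed genes. Adding 1 to every RPKM shrinks the ratios of low genes. With it, 2 imprinted genes were past 2-fold in shMLL1, 1 in shNFIB and 0 in shKDM4D cells at day 0. The share of all genes under that setting is not given. Without the addition, none was more than 2-fold higher in shMLL1 cells, against 1.67% of all. In shNFIB cells *H19*, *Igf2* and *Dlk1* were lower (3 of 17, against 6.05% of all), and the neighbours *Sgce* and *Peg10* were higher (2 of 17, against 2.95%). In shKDM4D cells *Airn* and *Dlk1* were lower (2 of 17, against 4.26%) and *Peg10* was higher (1 of 17, against 1.98%). Leaving out *H19*, *Igf2* and *Dlk1*, 14 imprinted genes exceeded 1 RPKM in some line at day 0. Of these 14, 3 were past 2-fold either way in shMLL1 cells (against 6.48% of the 10641 genes over the same limit), 2 in shNFIB (against 6.41%) and 2 in shKDM4D cells (against 3.92%).

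The imprinted genes of shMLL1 cells lay low at day 0 also where they did not reach 2-fold. The value was below that of shControl cells for 16 of the 17 genes, against 57.6% of all expressed genes, with *Peg10* as the exception. With median-of-ratios scaling 14 of the 17 were lower, against 51.9% of all expressed genes. With quantile normalization 14 of the 17 were lower, against 47.1%. The median log2 ratio of the 17 genes was -0.64 with *Dlk1*, at 0 reads, set to its bound, and the median of all genes was -0.07. In shNFIB cells 11 of 17 were lower, against 47.2% of all expressed genes, with a median of -0.60 against 0.03 for all genes. In shKDM4D cells 7 of 17 were lower, against 50.4% of all expressed genes, and the median was 0.05 against 0.00 for all genes. The 3 comparisons share the shControl library. *H19*, *Igf2* and *Dlk1* are among the lower genes in shMLL1 and shNFIB cells. They passed the expression limit only at day 5, and the shControl library was among those over it. The counts and medians include these 3 genes and are thus in part shaped by that limit.

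**Figure D2:**
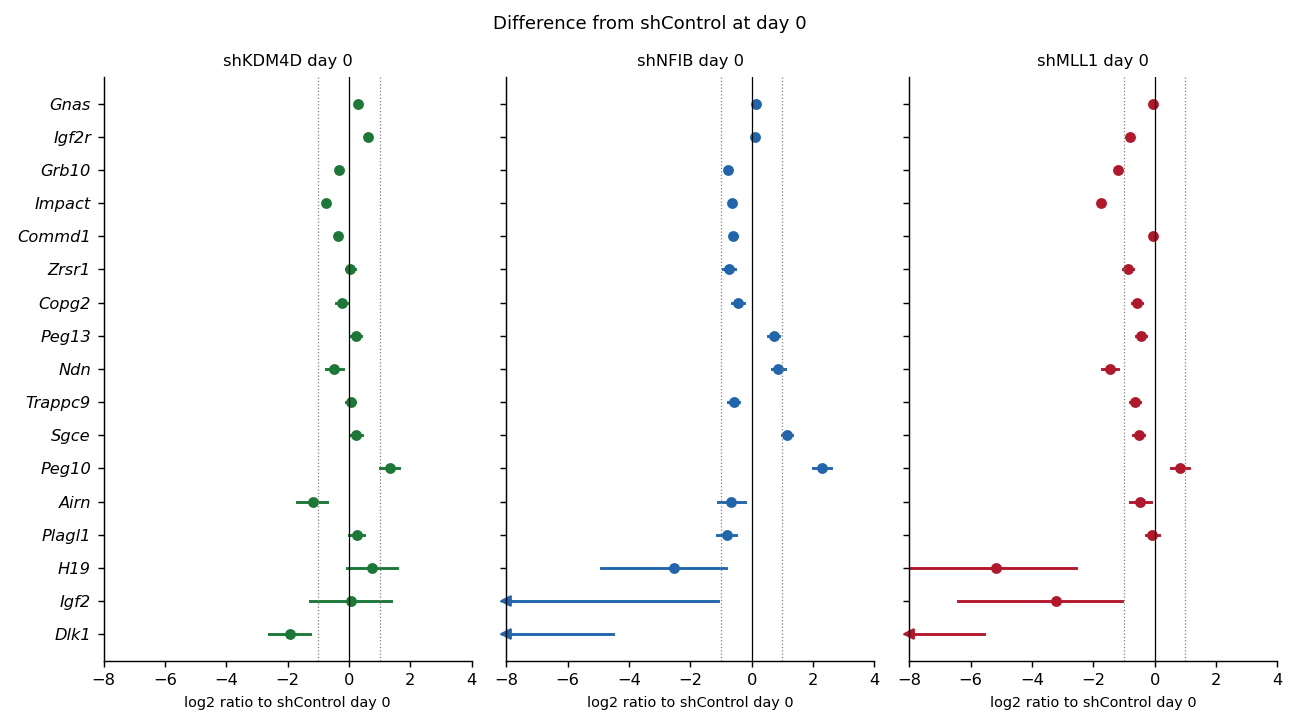
Log2 ratio of each knockdown line to shControl at day 0 for the 17 expressed imprinted genes. Points are single libraries against a single library and bars are 95% intervals for counting error. Arrowheads mark genes at 0 reads, bars are clipped at the axis limits, and dotted lines mark 2-fold. In shMLL1 cells 16 of the 17 genes lie left of 0, and *Peg10* lies right of 0 in all 3 lines.

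The second question was which imprinted genes changed with differentiation. *Airn* was more than 2-fold higher at day 5 in all 4 lines. *H19*, *Igf2*, *Airn*, *Dlk1*, *Sgce* and *Peg10* were higher in shControl cells (6 of 17, against 13.0% of all expressed genes), and none was lower (against 8.56%). The same 6 genes and *Ndn* were higher in shKDM4D cells (7 of 17, against 12.8%), and none was lower (against 8.44%). In shNFIB cells *Igf2* and *Airn* were higher, and *Dlk1* met the rule by a single read at day 5 after 0 reads at day 0 (3 of 17, against 12.6%). *Plagl1* and *Peg10* were lower there (2 of 17, against 4.96%). In shMLL1 cells *H19*, *Igf2*, *Airn*, *Sgce* and *Zrsr1* were higher (5 of 17, against 20.4%) and *Plagl1* was lower (1 of 17, against 6.89%). *H19*, *Igf2* and *Dlk1* passed the expression limit only at day 5, so their rise was in part required by it. Without them, *Airn*, *Sgce* and *Peg10* remain in shControl cells, and these and *Ndn* in shKDM4D cells. The shares of all expressed genes also include genes over the limit at day 5 only, so they are not a background for the genes that remain.

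The 4 lines were then treated as replicates of differentiation, with the line as a block (limma on log2(RPKM + 0.1), Benjamini-Hochberg adjustment over all expressed genes). This test was added after the values were seen, and it asks for a change shared by control and knockdown lines. The series has no day 5 library without adipogenic medium. A change with differentiation can therefore not be told apart from a change with time in culture. The lines also differed in how far they became fat cells, as given below. *H19*, *Igf2*, *Airn*, *Copg2*, *Ndn*, *Sgce*, *Trappc9* and *Zrsr1* were higher at day 5 at an adjusted p under 0.05 (8 of 17, against 29.0% of all expressed genes), and each was higher in 4 of 4 lines. *Plagl1* was lower (1 of 17, against 21.0%), in 4 of 4 lines. *H19* and *Igf2* passed the expression limit only at day 5, so their rise was in part required by that limit. The other genes named here passed it in some line at day 0. *Copg2* had a limma adjusted p of 0.00101, with a mean log2 change of 0.91 (0.70 to 1.12), and *Airn* had an adjusted p of 0.00147, with 1.38 (1.00 to 1.76). *Dlk1* (1.69, -0.15 to 3.52, limma adjusted p of 0.107) and *Peg10* (0.28, -0.97 to 1.53, limma adjusted p of 0.674) did not pass, and *Peg10* was higher in 2 of 4 lines. *Ndn* did not pass without shControl (limma adjusted p of 0.0526), without shNFIB (0.0626) or with quantile normalization (0.112). *Plagl1* did not pass without shKDM4D (limma adjusted p of 0.0563), without shNFIB (0.0686) or without shMLL1 (0.0647). For *H19* the difference in shNFIB cells, 3 reads against 4, was within counting error.

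Smaller differences in the same direction were frequent among the remaining genes. At day 5 the value was above that of day 0 for 14 of 17 genes in shControl, 15 of 17 in shKDM4D, 14 of 17 in shNFIB and 14 of 16 in shMLL1 cells, where *Dlk1* had 0 reads on both days. Among all expressed genes the share that was lower at day 5 was between 40.9% and 48.0%. The scaling matters for these small differences. Leaving out the reads of 2 ribosomal RNA-like genes, which took 7.95% to 10.5% of the reads at day 0 and 3.07% to 3.62% at day 5, gave 12 of 17 in shControl and 12 of 17 in shKDM4D cells. In these 2 lines 54.8% and 52.6% of all expressed genes were then lower at day 5. Quantile normalization gave 10 of 16 in shMLL1 cells, where 55.1% of all expressed genes were lower. The lines also differed in how far they became fat cells. The summed RPKM of 7 adipocyte markers was at most 10.9 at day 0. At day 5 it reached 777 in shControl cells, against 38.6 for shKDM4D, 12.0 for shNFIB and 12.3 for shMLL1, and the part of this in the levels of imprinted genes was not tested.

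**Figure D3:**
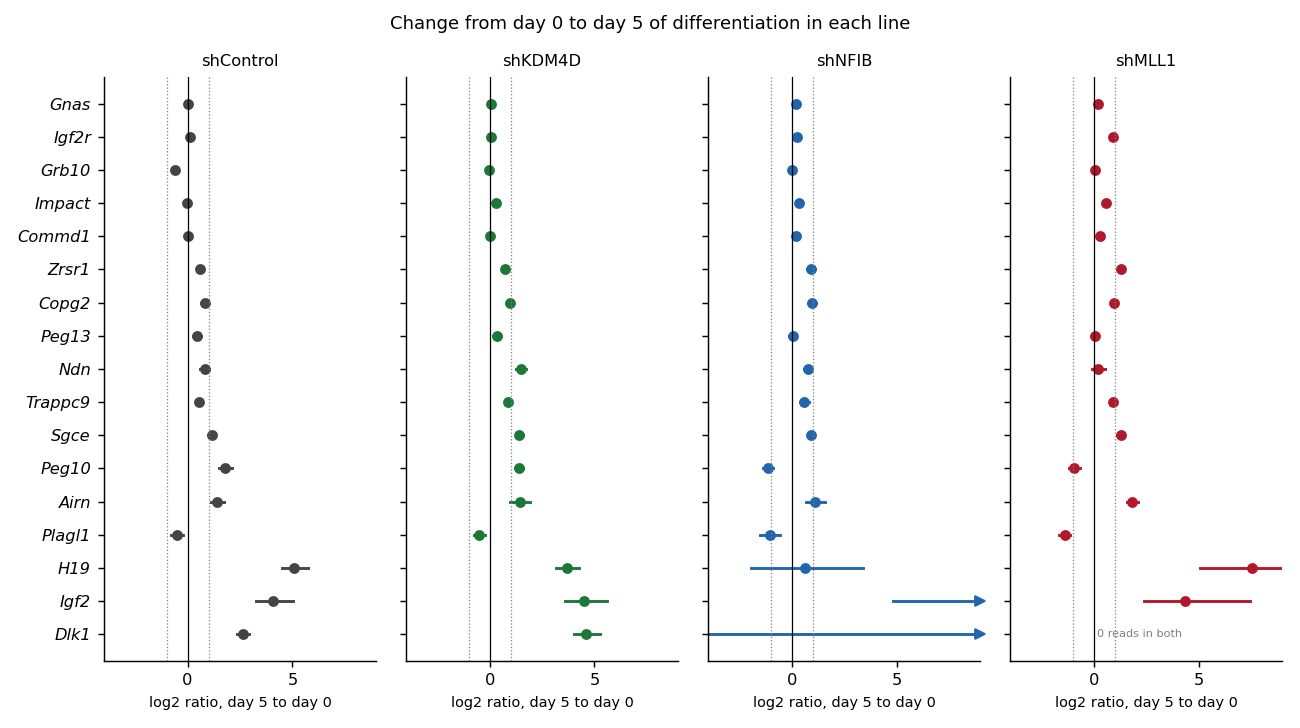
Log2 ratio of day 5 to day 0 in each line for the 17 expressed imprinted genes, with 95% intervals for counting error. Arrowheads mark genes at 0 reads on day 0, bars are clipped at the axis limits, and dotted lines mark 2-fold. *Airn* lies right of the 2-fold line in all 4 lines, and *Peg10* lies right of it in shControl and shKDM4D cells but left of 0 in shNFIB and shMLL1 cells.

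At day 5 the differences between lines followed in part those of day 0. In shMLL1 cells *H19*, *Igf2*, *Dlk1*, *Ndn*, *Impact* and *Peg10* were more than 2-fold lower than in shControl cells (6 of 17, against 4.02% of all expressed genes). None was higher (against 5.25%). Of these 6, 5 were already past 2-fold the same way at day 0, and *Peg10* was added at day 5. In shNFIB cells *H19*, *Dlk1* and *Plagl1* were lower (3 of 17, against 5.67%) and none was higher (against 5.54%). *H19* and *Dlk1* were past 2-fold in shNFIB cells on both days. In shKDM4D cells only *Airn* was lower (1 of 17, against 4.57%), as at day 0, and none was higher (against 1.88%). *H19*, *Igf2* and *Dlk1* passed the expression limit only at day 5, and the shControl library was among those over it. Part of their difference from shControl cells was thus required by the limit. Without them, *Ndn*, *Impact* and *Peg10* remain in shMLL1 cells and *Plagl1* in shNFIB cells. The shares above include genes over the limit at day 5 only and are not a background for these genes.

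The change with differentiation in each knockdown line was then set against that in shControl cells. *H19*, *Igf2*, *Dlk1* and *Peg10* differed past 2-fold in shNFIB cells (4 of 17, against 11.1% of all expressed genes), *H19* and *Peg10* in shMLL1 cells (2 of 17, against 12.7%) and *H19* and *Dlk1* in shKDM4D cells (2 of 17, against 6.04%). *H19*, *Igf2* and *Dlk1* passed the expression limit only at day 5, with the shControl library among those over it. A part of their differences was thus required by the limit. Without them, only *Peg10* remains, in shNFIB and shMLL1 cells, and no gene in shKDM4D cells. The shares of all expressed genes include such genes too. Most of the differences also rest on genes with few reads at day 0. The values for *Igf2* and *Dlk1* in shNFIB cells start from 0 reads, and their intervals include 0 (-0.36 to 7.82 and -5.43 to 3.82). The interval for *H19* in shMLL1 cells also includes 0 (-0.46 to 4.32), and its direction turns with 1 added to every RPKM. *Peg10* had at least 137 reads in every library, and its value was -2.93 (-3.30 to -2.54) in shNFIB and -2.72 (-3.10 to -2.33) in shMLL1 cells.

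*H19* and *Igf2* form the domain of the insulin-like growth factor 2. *Igf2* is expressed from the paternal copy and encodes a fetal growth factor, and *H19* is a noncoding RNA of the maternal copy. Both share enhancers, to which *Igf2* has access only where the insulator protein CTCF does not bind the control region. *H19* lies on chromosome 7 of GRCm38 from 142575529 to 142578143 and *Igf2* from 142650766 to 142666816, both on the minus strand. The first exon of *H19* also carries the microRNA miR-675. Small RNAs were not measured, and its 2 arms are shown because any reads of *H19* come from their precursor RNA. Both mature sequences lie inside an annotated *H19* exon (RefSeq, GRCm38.p6), and capitals mark the seed, bases 2 to 8, which differs between them.
mmu-miR-675-5p: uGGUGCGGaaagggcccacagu
mmu-miR-675-3p: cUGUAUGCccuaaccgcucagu

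*H19* had an RPKM of 0.382 at day 0 and 12.9 at day 5 for shControl, 0.645 and 8.26 for shKDM4D, 0.0653 and 0.103 for shNFIB, and 0.0106 and 2.02 for shMLL1. The reads behind these were 25 and 615, 31 and 439, 3 and 4, and 1 and 189. At day 5 shControl and shKDM4D cells were therefore high, shMLL1 cells intermediate and shNFIB cells near the floor of 3 reads. The log2 change with differentiation was 5.08 (4.51 to 5.72) in shControl, 3.68 (3.15 to 4.25) for shKDM4D and 7.57 (5.07 to 12.88) for shMLL1. In shNFIB cells it was 0.65 with an interval from -1.91 to 3.42, and a change was not detectable at this depth. At day 5 the log2 ratio to shControl cells was -6.98 (-8.86 to -5.61) in shNFIB and -2.68 (-2.93 to -2.44) in shMLL1 cells.

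*Igf2* also rose with differentiation, but its order of lines was another. Its RPKM was 0.0853 at day 0 and 1.45 at day 5 for shControl, 0.0894 and 2.03 for shKDM4D, 0 and 1.01 for shNFIB, and 0.00915 and 0.188 for shMLL1. The change on the log2 scale was 4.08 (3.27 to 5.02) in shControl, 4.50 (3.60 to 5.58) for shKDM4D and 4.36 (2.42 to 7.45) for shMLL1. In shNFIB cells *Igf2* went from 0 to 92 reads, at least 36.1-fold higher when the 0 is set to 3 reads. While shNFIB cells had 4 reads of *H19* at day 5, their *Igf2* level was within 2-fold of shControl cells (log2 ratio -0.51, -0.90 to -0.13). In shMLL1 cells both neighbours were low at day 5, with a ratio of -2.94 (-3.48 to -2.44) for *Igf2*.

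*Dlk1* had reads at day 0 in shControl and shKDM4D cells but none in the other lines. The range over the lines at day 0 was 3.21 on the log2(RPKM + 0.1) scale, and 0.87 with 1 added, when that of *Ndn* was 1.69. *Dlk1* is a paternally expressed gene of chromosome 12 and lies from 109452823 to 109463336 on the plus strand. Its RPKM was 0.823 at day 0 and 5.09 at day 5 in shControl cells and 0.217 and 5.33 in shKDM4D cells. In shNFIB cells *Dlk1* had 0 reads at day 0 and 1 read at day 5, and in shMLL1 cells 0 reads on both days. The shControl libraries had 124 and 557 reads. *Dlk1* was thus at least 29.0-fold lower than in shControl cells at day 0 in shNFIB and at least 59.3-fold lower in shMLL1 cells, with 0 set to 3 reads. At day 5 it was at least 366-fold lower in shMLL1 cells.

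In the lines that had *Dlk1* reads at day 0, the level rose with differentiation. The log2 change was 2.63 (2.35 to 2.92) in shControl and 4.62 (4.03 to 5.27) in shKDM4D cells. The 2 lines differed at day 0 (-1.92, -2.62 to -1.28) and not detectably at day 5 (0.07, -0.10 to 0.23), so the larger change in shKDM4D cells started from a lower level. The maternally expressed noncoding RNAs of the same domain were near 0 throughout, with at most 2 reads of *Meg3*, 10 of *Rian* and 6 of *Mirg* in a library.

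The promoters of *Dlk1*, *Airn* and *Ndn* are printed as examples from 3 domains among the genes that were past 2-fold between lines. The reference table also held windows for other such genes, *Igf2*, *Grb10* and *Plagl1*. Each is the 250 bases before the RefSeq start (GRCm38.p6, plus strand), and capitals mark CG, the dinucleotide that carries DNA methylation. The windows are chr12:109452573-109452822 for *Dlk1*, chr17:12741061-12741310 for *Airn* and chr7:62348027-62348276 for *Ndn*, whose GENCODE gene begins upstream of that start, at 62346569.
Dlk1: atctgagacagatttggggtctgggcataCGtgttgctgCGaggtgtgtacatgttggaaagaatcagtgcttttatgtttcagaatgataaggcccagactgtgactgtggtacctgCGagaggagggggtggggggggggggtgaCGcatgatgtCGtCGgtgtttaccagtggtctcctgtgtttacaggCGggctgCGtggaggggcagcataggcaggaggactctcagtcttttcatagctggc
Airn: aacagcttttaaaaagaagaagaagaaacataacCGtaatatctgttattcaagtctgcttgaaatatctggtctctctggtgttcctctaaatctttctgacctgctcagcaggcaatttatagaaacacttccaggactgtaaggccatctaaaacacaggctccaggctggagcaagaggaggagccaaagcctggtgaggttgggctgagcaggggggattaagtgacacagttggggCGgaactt
Ndn: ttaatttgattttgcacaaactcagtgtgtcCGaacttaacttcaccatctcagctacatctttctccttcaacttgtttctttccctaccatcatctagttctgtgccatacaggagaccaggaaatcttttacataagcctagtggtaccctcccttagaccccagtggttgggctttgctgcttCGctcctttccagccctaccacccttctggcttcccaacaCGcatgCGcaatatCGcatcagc

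The *Dlk1* window holds 8 CG, the *Ndn* window 5 and the *Airn* window 2, and the median of 32851 windows of the same length is 6. Neither TGCCGC, the motif that the imprint-keeping protein ZFP57 binds when methylated, nor the full palindrome of the nuclear factor I family to which NFIB belongs, TTGGC and GCCAA with 5 bases of any kind between them, was found in these windows on either strand. TGCCGC stands in 8.68% of all windows and the palindrome in 0.0365%. These counts describe only the letters printed, and neither methylation nor binding was measured here.

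*Sgce* and *Peg10* are paternally expressed neighbours on chromosome 6 that are transcribed away from each other. *Sgce* encodes the muscle and brain protein epsilon-sarcoglycan, and *Peg10* derives from a retrotransposon and is needed in the placenta. *Sgce* lies from 4674350 to 4747207 on the minus strand and *Peg10* from 4747306 to 4760517 on the plus strand, and the starts are 99 bases apart. *Sgce* had an RPKM of 1.67 at day 0 and 3.71 at day 5 for shControl, 1.95 and 5.23 for shKDM4D, 3.69 and 7.00 for shNFIB, and 1.16 and 2.83 for shMLL1. It was higher at day 5 in every line, by 1.15 (0.99 to 1.32), 1.42 (1.26 to 1.59), 0.92 (0.79 to 1.06) and 1.28 (1.13 to 1.44) on the log2 scale in this order. The order of the lines was the same on both days, from shNFIB down to shMLL1 cells, and each neighbouring pair was apart by its counting interval.

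*Peg10* did not follow its neighbour. It had an RPKM of 0.771 at day 0 and 2.68 at day 5 for shControl, 1.94 and 5.14 for shKDM4D, 3.76 and 1.72 for shNFIB, and 1.37 and 0.720 for shMLL1. With differentiation *Peg10* rose in shControl (1.80, 1.51 to 2.10) and shKDM4D cells (1.40, 1.20 to 1.62). It fell past 2-fold in shNFIB cells (-1.13, -1.38 to -0.88), and its value in shMLL1 cells was also lower at day 5 (-0.92, -1.19 to -0.66). At day 0 all 3 knockdown lines were above shControl cells, with log2 ratios of 1.33 (1.03 to 1.64) in shKDM4D, 2.29 (2.01 to 2.57) in shNFIB and 0.82 (0.54 to 1.12) in shMLL1 cells. At day 5 shKDM4D cells were still above shControl cells (0.94, 0.75 to 1.13), and shNFIB (-0.64, -0.91 to -0.38) and shMLL1 cells (-1.90, -2.17 to -1.64) were below. *Ppp1r9a*, a maternally expressed gene of the same domain, was not expressed by the limit used. It had 18 and 15 reads in shControl and 47 and 61 in shMLL1 cells, against 1 read in all in the shKDM4D and shNFIB libraries.

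**Figure D4:**
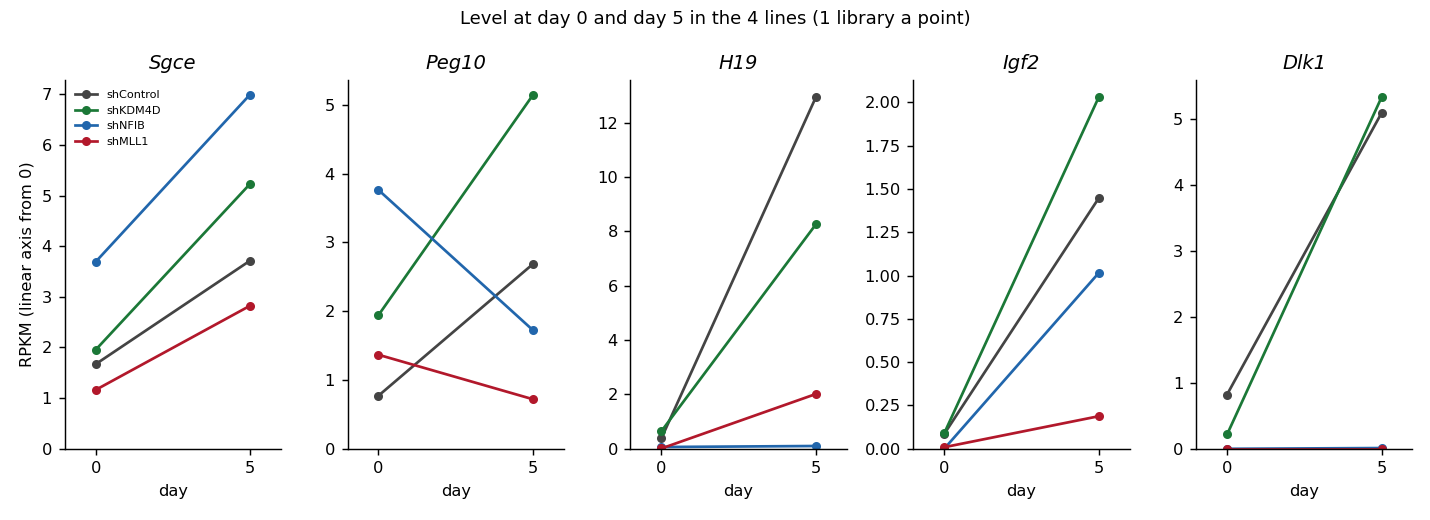
RPKM (linear axis from 0) of *Sgce*, *Peg10*, *H19*, *Igf2* and *Dlk1* at day 0 and day 5, with 1 line per cell line and 1 library per point. *Sgce* is higher at day 5 in all 4 lines, while *Peg10* is higher in shControl and shKDM4D cells and lower in shNFIB cells (3.76 to 1.72) and shMLL1 cells (1.37 to 0.720).

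*Igf2r* and *Airn* form a domain on chromosome 17. *Igf2r* encodes a receptor that takes up and degrades IGF2 and is expressed from the maternal copy in most mouse tissues. *Airn* is a paternally expressed noncoding RNA that overlaps the *Igf2r* promoter from the other strand. The genes share 28354 bases but no annotated exon base. The strand setting of the counting is not stated. Reads of unspliced *Igf2r* RNA in *Airn* exons can therefore not be told apart from those of *Airn*. *Airn* had an RPKM of 1.56 at day 0 and 4.17 at day 5 for shControl, 0.683 and 1.85 for shKDM4D, 0.983 and 2.16 for shNFIB, and 1.13 and 4.06 for shMLL1. It was higher at day 5 by 1.42 (1.13 to 1.72), 1.44 (0.96 to 1.94), 1.13 (0.69 to 1.59) and 1.85 (1.59 to 2.11) on the log2 scale, in this order. In shKDM4D cells *Airn* was as far below shControl cells at day 0 (-1.19, -1.69 to -0.71) as at day 5 (-1.17, -1.47 to -0.88), and the changes with differentiation differed by 0.02 (-0.54 to 0.56).

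The receptor gene stayed within 2-fold between the days in every line, with its largest change in shMLL1 cells (0.91, 0.86 to 0.96). *Igf2r* had an RPKM of 24.1 at day 0 and 26.5 at day 5 for shControl, 37.4 and 38.5 for shKDM4D, 26.2 and 31.4 for shNFIB, and 13.8 and 26.0 for shMLL1. In shMLL1 cells it was below shControl cells at day 0 (-0.80, -0.86 to -0.75) and level with them at day 5 (-0.03, -0.08 to 0.02). *Igf2r* was above shControl cells in shKDM4D cells on both days, at 0.63 (0.58 to 0.68) and 0.54 (0.49 to 0.59). *Airn* was thus more than 2-fold low and *Igf2r* high in shKDM4D cells. In shMLL1 cells both were below shControl cells at day 0 (*Airn* -0.46, *Igf2r* -0.80) and close to them at day 5. In shNFIB cells at day 5 *Airn* was low (-0.95, -1.27 to -0.64) with *Igf2r* near shControl (0.24, 0.18 to 0.30). A relation between the levels of the 2 genes was not tested. *Slc22a3*, a transporter gene of the same domain that is imprinted in the placenta, had 0 reads in all libraries.

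*Grb10* and *Plagl1* are both known to restrain growth. *Grb10* encodes an adaptor that restrains insulin and IGF signalling and is maternally expressed outside the brain. Its RPKM was 40.3 at day 0 and 26.2 at day 5 for shControl, 32.2 and 32.1 for shKDM4D, 23.7 and 23.7 for shNFIB, and 17.7 and 18.2 for shMLL1. At day 0 the 4 lines were all apart, with shMLL1 cells at -1.18 (-1.23 to -1.14) from shControl cells. The log2 ratio of day 5 to day 0 was -0.62 (-0.67 to -0.57) in shControl cells and between -0.01 and 0.04 in the 3 knockdown lines. *Plagl1* encodes a zinc finger factor that represses growth and regulates other imprinted genes. It had an RPKM of 1.52 at day 0 and 1.09 at day 5 for shControl, 1.81 and 1.29 for shKDM4D, 0.863 and 0.428 for shNFIB, and 1.44 and 0.560 for shMLL1. *Plagl1* was lower at day 5 in all 4 lines, by -0.49 (-0.77 to -0.21), -0.49 (-0.75 to -0.22), -1.01 (-1.50 to -0.54) and -1.36 (-1.63 to -1.10). These are shControl, shKDM4D, shNFIB and shMLL1 cells in turn, and the values of shNFIB and shMLL1 cells are past 2-fold.

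*Ndn* and *Impact* were more than 2-fold lower in shMLL1 than in shControl cells on both days. *Ndn* encodes necdin, a paternally expressed protein that holds back cell growth and adipogenesis, from the domain of the Prader-Willi syndrome region. Its RPKM was 3.45 at day 0 and 6.04 at day 5 for shControl, 2.48 and 6.95 for shKDM4D, 6.29 and 10.7 for shNFIB, and 1.25 and 1.46 for shMLL1. On both days shNFIB cells were highest and shMLL1 cells lowest. The log2 ratio to shControl cells was 0.87 (0.66 to 1.08) and 0.82 (0.64 to 1.00) in shNFIB cells, and -1.46 (-1.73 to -1.19) and -2.05 (-2.29 to -1.80) in shMLL1 cells, at day 0 and day 5. *Ndn* changed most with differentiation in shKDM4D cells, by 1.49 (1.24 to 1.74), and its change in shMLL1 cells was within counting error (0.22, -0.08 to 0.52). The domain neighbours *Magel2* and *Snrpn* were covered by 1 read in all and by 0 reads.

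*Impact*, a paternally expressed gene of chromosome 18, encodes an inhibitor of the translation regulator GCN2. It had an RPKM of 23.9 at day 0 and 23.4 at day 5 for shControl, 14.2 and 17.7 for shKDM4D, 15.3 and 19.8 for shNFIB, and 7.12 and 10.7 for shMLL1. All 3 knockdown lines were below shControl cells on both days. In shMLL1 cells the log2 ratio was -1.75 at day 0 (-1.86 to -1.63) and -1.13 at day 5 (-1.23 to -1.02). In shKDM4D cells it was -0.75 (-0.86 to -0.64) and -0.40 (-0.51 to -0.29), and in shNFIB cells -0.64 (-0.75 to -0.53) and -0.24 (-0.36 to -0.13). The gap was smaller at day 5 in each line, while *Impact* in shControl cells differed between the days by no more than counting error (-0.03, -0.12 to 0.07).

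*Gnas* is maternally expressed in some tissues only, and most cells transcribe its main product from both copies. It had an RPKM of 93.4 at day 0 and 95.2 at day 5 for shControl, 114 and 119.6 for shKDM4D, 103 and 117 for shNFIB, and 90.2 and 103 for shMLL1. No ratio to shControl cells or between days reached 2-fold, and the largest of these was 0.33 (0.30 to 0.35), in shKDM4D cells at day 5. With at least 20583 reads per library the intervals leave little room for counting error, but they do not cover the spread between cultures. *Nespas*, an antisense RNA that starts inside the annotated *Gnas* gene, had between 1 and 12 reads per library. Since 988 bases of exon are shared between the genes on opposite strands and the strand setting of the counting is not stated, its reads cannot be told from those of *Gnas*.

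The remaining expressed genes are nested or overlapping pairs. *Copg2*, which encodes a subunit of the vesicle coat COPI, overlaps *Mest* by 912 exon bases at the 3′ ends. *Copg2* had an RPKM of 4.92 at day 0 and 8.63 at day 5 for shControl, 4.16 and 8.09 for shKDM4D, 3.61 and 7.09 for shNFIB, and 3.31 and 6.50 for shMLL1. It was higher at day 5 by nearly the same amount in every line, from 0.81 (0.66 to 0.96) to 0.97 (0.83 to 1.11), and none of its differences from shControl cells reached 2-fold. *Mest*, the paternally expressed hydrolase gene at that locus and known for its expression in growing fat, had only 1 to 11 reads per library.

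*Peg13*, a paternally expressed noncoding RNA, lies within an intron of *Trappc9* on the same strand, and *Trappc9* encodes a subunit of a vesicle tethering complex. Reads of unspliced *Trappc9* RNA over *Peg13* cannot be told apart from those of *Peg13*. The RPKM of *Peg13* was 4.20 at day 0 and 5.77 at day 5 for shControl, 4.91 and 6.30 for shKDM4D, 6.89 and 7.11 for shNFIB, and 3.10 and 3.23 for shMLL1. *Trappc9* had 3.62 and 5.23, 3.75 and 6.87, 2.41 and 3.68, and 2.33 and 4.48 in the same libraries. In shNFIB cells at day 0 the host and the RNA lay on opposite sides of shControl cells, with *Peg13* at 0.71 (0.54 to 0.88) and *Trappc9* at -0.59 (-0.77 to -0.40). *Trappc9* was higher at day 5 in all lines, by 0.53 to 0.95, and the difference of *Peg13* stayed within counting error in shNFIB (0.04, -0.13 to 0.21) and shMLL1 cells (0.06, -0.11 to 0.23).

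*Zrsr1* is a paternally expressed copy of a splicing factor gene and lies within *Commd1* on the other strand, sharing 412 exon bases with it. *Commd1* encodes a protein of copper handling and endosomal sorting. *Zrsr1* had an RPKM of 6.50 at day 0 and 9.71 at day 5 for shControl, 6.71 and 11.1 for shKDM4D, 3.86 and 7.29 for shNFIB, and 3.58 and 8.75 for shMLL1. *Commd1* had 13.1 and 13.3, 10.2 and 10.3, 8.62 and 10.0, and 12.7 and 15.7. *Zrsr1* was higher at day 5 in every line, from 0.58 (0.44 to 0.72) in shControl to 1.29 (1.15 to 1.43) in shMLL1 cells, and *Commd1* by 0.02 to 0.31. Reads from the shared bases cannot be assigned without the strand.

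The 18 genes below the limit reached at most 0.164 RPKM. Of these, *Zim1*, *Snrpn* and *Slc22a3* had 0 reads in all 8 libraries, 6 had 1 to 10 reads in all, and 9 had more. *Peg3* and *Usp29*, the growth-restraining genes *Cdkn1c* and *Phlda2* and the noncoding *Meg3* had at most 6 reads in any library, *Nap1l5* at most 1, *Asb4* at most 7 and *Nnat* at most 10. The antisense RNA *Kcnq1ot1*, which silences the domain of *Cdkn1c*, has 1 exon of 93092 bases within *Kcnq1*, which itself had 0 reads in 7 libraries and 2 reads in shMLL1 cells at day 5. It had 91 reads at day 0 and 182 at day 5 for shControl, 67 and 78 for shKDM4D, 64 and 72 for shNFIB, and 165 and 214 for shMLL1. Its log2 change with differentiation was 1.46 (1.09 to 1.84) in shControl cells, against 0.07 (-0.42 to 0.57) in shKDM4D, 0.41 (-0.10 to 0.92) in shNFIB and 0.38 (0.08 to 0.68) in shMLL1 cells.

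The range over the 4 lines at day 0 was then set beside the mean absolute change over the 4 lines, on the log2(RPKM + 0.1) scale. The range spans the extremes of 4 values and the change is an average. Equal noise alone would therefore tend to make the range larger. The range was larger for 12 of the 17 expressed imprinted genes, against 57.8% of all expressed genes. Among these 12 were *Ndn* (2.24 against 0.80), *Impact* (1.73 against 0.32), *Igf2r* (1.43 against 0.34), *Grb10* (1.18 against 0.17) and *Peg13* (1.13 against 0.23). *H19* (2.75 against 3.20), *Igf2* (0.92 against 2.86), *Airn* (1.08 against 1.38), *Copg2* (0.56 against 0.91) and *Trappc9* (0.67 against 0.72) had the larger change with differentiation. The median range of the 17 genes was 1.13, against 0.53 for all expressed genes, and the median change was 0.80 against 0.45. *Gnas* was below the median of all genes on both measures (0.34 and 0.12), and *Commd1* was near it for the range (0.59) and below it for the change (0.14).

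**Figure D5:**
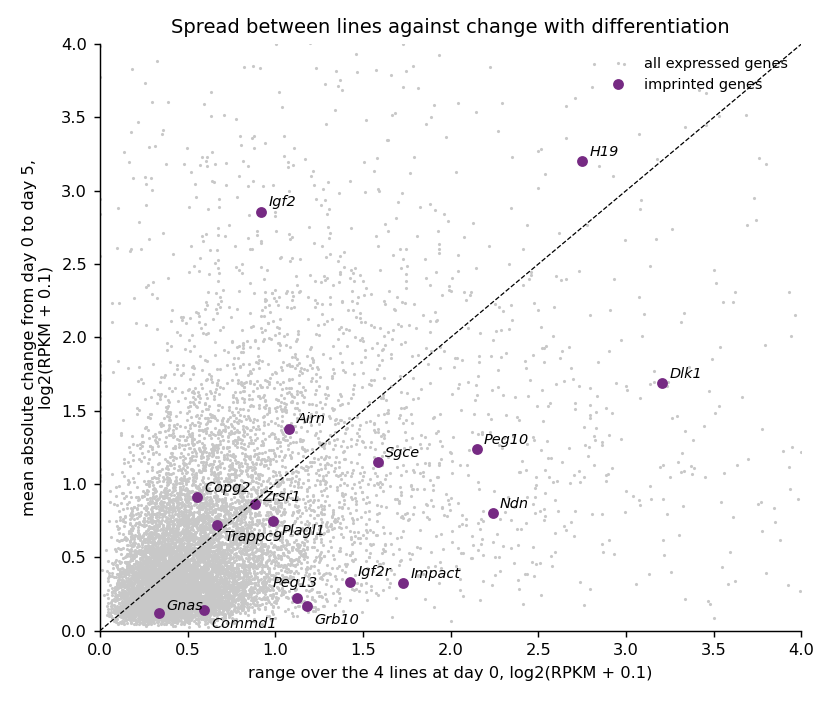
Range over the 4 lines at day 0 (horizontal) against the mean absolute change from day 0 to day 5 (vertical), both on the log2(RPKM + 0.1) scale, for all expressed genes (grey) and the 17 imprinted genes (purple). The dashed line marks equality, and 139 genes beyond the axis limit of 4 are not drawn. *Dlk1*, *Ndn*, *Peg10* and *Impact* lie below the dashed line, and *Igf2*, *H19* and *Airn* lie above it.

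Further genes of the same domains and the genes that set and keep imprints were examined for comparison. Of 39 other genes in imprinted domains, 17 were expressed, and *Slc22a18* and *Tspan32*, which encode a transporter and a tetraspanin of the *Kcnq1* domain, were the 2 that passed 2-fold upward with differentiation in all 4 lines. *Slc22a18* went from 0.552 to 2.01 RPKM and *Tspan32* from 0.361 to 2.05 in shControl cells. Both were below 1 RPKM in every line at day 0 and passed the limit only at day 5, so some rise was required of them. In each line they were the only 2 of the 17 past 2-fold upward, against 12.6% to 20.4% of all expressed genes. At day 0 none of these 17 genes was past 2-fold in shKDM4D cells, 1 was lower in shNFIB cells, and in shMLL1 cells 1 was higher and 2 were lower. At day 5 none was in shKDM4D or shNFIB cells, and 1 was higher and 1 lower in shMLL1 cells. These counts stand against the same shares of all expressed genes as above, between 1.67% and 7.43% in either direction. Of 20 imprint regulators, 16 were expressed, and none was past 2-fold in any knockdown line at day 0. At day 5 none was in shKDM4D, 1 was higher in shNFIB (against 5.54% of all expressed genes) and 2 were higher in shMLL1 cells (against 5.25%). *Dnmt1*, the methyltransferase that copies methylation after replication, and *Hells*, a remodeller needed for it, were more than 2-fold lower at day 5 in all 4 lines. *Dnmt1* changed by -1.49 (-1.57 to -1.42) in shControl, -1.20 (-1.27 to -1.13) in shKDM4D, -1.01 (-1.09 to -0.94) in shNFIB and -1.22 (-1.27 to -1.18) in shMLL1 cells. *Hells* was lower at day 5 by a smaller amount in shNFIB cells (-1.19, -1.28 to -1.11) than in shControl cells (-2.08, -2.18 to -1.97), and stood above shControl cells at day 5 in shNFIB (1.10, 0.98 to 1.22) and shMLL1 cells (1.01, 0.90 to 1.12). Both genes are highest in dividing cells, and their part in the levels of imprinted genes was not tested.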

How the data were processed

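Total RNA of the 8 samples (4 lines at 2 days) was sequenced, and per the labels the reads were mapped to GRCm38 (mm10). The authors used CLC Genomics Workbench and deposited RPKM values per gene. The annotation version and the strand setting are not given in the sources used here. Quantile normalization, named in the methods, is not visible in the deposited RPKM, and was tried as an alternative.

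Reads were recovered as RPKM times exon length (GENCODE M21) times mapped reads. Of the values under 1000 reads, 96.2% to 96.6% per library lay within 0.02 of a whole number, as did 33 of the 35 imprinted genes. For *Rian* (14381 bases) and *Impact* (3432 bases) the exon length was taken from the values. Log2 ratios have exact Clopper-Pearson 95% intervals given the sum of the reads, and differences of changes have log-normal intervals with 0.5 reads added. Intervals and the floor of 3 reads cover counting error only. Differences between lines were not tested, since each condition has 1 library. The change from day 0 to day 5 was tested over the 4 lines with limma 3.58.1 (R 4.3.3, trend, line as block, 3 residual degrees of freedom), an analysis added after seeing the values. It treats the 4 lines as replicates of differentiation. Its p-values weigh the mean change against its variation between lines, with each variance moderated toward a trend over all expressed genes. The 35 genes and all lists were chosen with earlier results of these data known. The genes over the limit are all described, and other genes are named when past 2-fold the same way in all knockdown lines on a day or in all 4 lines with differentiation. Promoter sequences were found for 27 of the 35 genes in RefSeq, and only the 250 bases before the start were searched. The calculations used Python 3.11.15, scipy 1.17.1 and pandas 2.3.3, and were checked on simulated data. The alternatives were 1 added to every RPKM, no filter or a limit of 2 RPKM, quantile normalization, median-of-ratios scaling, and leaving out the reads of 2 ribosomal RNA-like genes.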

Additional observations from a re-analysis of the deposited data

Results flagged for a closer look

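*Peg10* changed from day 0 to day 5 in opposite directions in different lines. The log2 change was 1.80 in shControl cells, and -1.13 in shNFIB and -0.92 in shMLL1 cells. Each value compares 1 library with 1 library, and the difference between the lines was not tested. *Sgce*, whose start is 99 bases away on the other strand, was higher at day 5 in all 4 lines.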

How the results depend on the processing

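Leaving out a library was possible only in the test over the 4 lines, where leaving out each line in turn left 7 to 9 of the 17 genes past the threshold, against 9 in all. Without the block for the line 6 passed (*H19*, *Ndn* and *Plagl1* did not, at limma adjusted p of 0.0615, 0.327 and 0.124), and under the other scalings and pseudocount 8 or 9. Of 84 counts of imprinted genes past the limits under other settings, 61 were within 1.5 times the value given. The counts below are given without the share of all genes under the same setting. They show how far the counts depend on the setting and are not compared with a background. With 1 added to every RPKM the counts at day 0 were 0 (shKDM4D), 1 (shNFIB) and 2 (shMLL1), that of shKDM4D at day 5 was 0, those with differentiation were 1 (shNFIB) and 3 (shMLL1), and that of the change in shKDM4D against shControl cells was 0. With no filter on RPKM, which adds genes with a few reads, the counts were 10, 14 and 14 at day 0 and 9, 12 and 15 at day 5 (shKDM4D, shNFIB, shMLL1). They were 11, 17, 9 and 13 with differentiation (shControl, shKDM4D, shNFIB, shMLL1), 10, 8 and 9 for the differences of changes, and 23 of the 35 for the range over lines. With quantile normalization 2 genes were past 2-fold in shKDM4D cells at day 5, and 4 in the change of shMLL1 cells. Restricted to genes over 1 RPKM at day 0, an alternative chosen after seeing the data, the counts were 2 (shNFIB) and 3 (shMLL1) at day 0 and 1 and 3 at day 5. They were 3 (shControl), 4 (shKDM4D) and 3 (shNFIB) with differentiation, and 0, 1 and 1 for the differences of changes. Of 844 log2 ratios of single genes under 4 settings, 703 stayed within the counting interval. The difference of changes of *H19* in shMLL1 cells was -1.76 with 1 added to every RPKM and 2.48 without, and the cause was not tested. The median of all expressed genes moved by more than 0.1 on the log2 scale in the change of shMLL1 cells (-0.27 with quantile normalization, -0.11 without ribosomal reads), of shNFIB cells (-0.14, quantile) and of shControl cells (-0.11, without ribosomal reads). In the differences of changes of shMLL1 cells the shift was -0.17 (quantile) and -0.11 (median of ratios).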

Other observations

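*Xist*, the noncoding RNA of X inactivation, which is itself imprinted in the mouse placenta, was looked up after its values were seen. It had an RPKM of 20.4 at day 0 and 29.2 at day 5 in shControl cells. The shNFIB libraries had 13.0 and 15.4, and the shMLL1 libraries 20.2 and 30.6. In shKDM4D cells it had 0.0456 and 0.0155, from 16 and 6 reads. The median log2 ratio of shKDM4D to shControl cells at day 0 was -0.02 over 363 other expressed genes of the X chromosome and 0.00 over 10918 autosomal genes. For shNFIB cells these medians were 0.20 and 0.02 at day 0 and 0.24 and 0.09 at day 5, and for shMLL1 cells -0.04 and -0.07 at day 0 and 0.03 and 0.07 at day 5.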
